A study of Mus musculus with 10 samples.

Results

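AP-1 and EGR transcription factors were examined in mRNA-seq libraries of mouse adipocyte precursors (APs) cultured with or without interleukin-4 (IL-4). The set held 10 genes, Egr1, Egr2, Egr3, Fos, Fosb, Fosl1, Fosl2, Jun, Junb and Atf3, which were found by their symbols among 18384 genes listed in the files. All 10 were listed in every library and passed the filter on low counts, which left 14009 genes for the test. By the study, the APs came from subcutaneous white adipose tissue of C57BL/6J mice. They were isolated with magnetic beads by removing cells with CD45 (a leukocyte surface protein) or CD31 (an endothelial one) and then keeping cells with SCA-1. The control group was 3 libraries numbered 1 to 3, and the IL-4 group was 3 libraries numbered 4 to 6, described in the series as biological replicates. IL-4 is the cytokine that signals through STAT6. By the study's methods, APs stayed in IL-4 medium for 4 days, so these libraries report a long exposure and not the first hour. No transgene or deletion was used, and both groups were grown in the same serum-containing medium.

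AP-1 is a pair of bZIP proteins bound to DNA through a leucine zipper. JUN proteins pair with each other or with a FOS protein, whereas FOS proteins need a JUN partner, and ATF3 can pair with JUN. EGR proteins bind GC-rich DNA through zinc fingers, alone and without such a partner. Fos, Egr1 and their relatives are known as immediate early genes, whose mRNA rises within minutes of a growth factor or stress signal through SRF with its ternary complex factors and through CREB, and then decays. In fat cell precursors the first wave of such factors is known from the hours after hormonal induction of differentiation.

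Short stretches before the annotated transcription start are shown for 5 of the genes. Jun and Junb are shown because these paralogs differed in their change, Atf3 because it rose together with Jun, Fos because it is the founding gene of its family and did not pass the test, and Egr2 because it moved against Egr1 and Egr3. The sequences are those of RefSeq on GRCm38 (the same assembly as mm10), each 80 bases long, written 5′ to 3′ on the strand of the gene and ending 1 base before the annotated start. Capitals mark TGACG or its reverse complement CGTCA (a partial CREB/ATF site), TGACNTCA (a full site with any middle base), and the CArG box, the site of SRF.
Jun, chr4:95052223-95052302, minus strand: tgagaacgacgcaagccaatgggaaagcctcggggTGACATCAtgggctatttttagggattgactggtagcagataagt
Junb, chr8:84978749-84978828, minus strand: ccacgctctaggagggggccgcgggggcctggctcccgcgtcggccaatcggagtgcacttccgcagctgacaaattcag
Atf3, chr1:191183334-191183413, minus strand: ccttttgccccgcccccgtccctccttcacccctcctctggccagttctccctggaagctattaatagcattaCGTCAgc
Fos, chr12:85473810-85473889, plus strand: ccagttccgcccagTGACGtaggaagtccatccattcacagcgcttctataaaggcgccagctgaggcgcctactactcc
Egr2, chr10:67537486-67537565, plus strand: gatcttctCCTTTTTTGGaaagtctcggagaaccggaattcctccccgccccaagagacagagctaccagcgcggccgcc

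In these stretches Jun held TGACATCA at positions -45 to -38 from its start, Fos held TGACG at -66 to -62, Atf3 held CGTCA at -7 to -3, and Egr2 held the CArG box CCTTTTTTGG at -72 to -63. Egr2 has 5 annotated starts in the table, and the stretch shown precedes that at base 67537566. Those at 67537869 and 67537870, next to each other, were preceded by the CArG box CCATATATGG and by CGTCA, in a stretch that overlaps an annotated exon, and the stretches before the remaining starts held none of the marked motifs. The stretch of Junb held none of the marked motifs, and its nearest TGACG lay further upstream, at -106 to -102. Windows from 250 bases before to 50 bases from the start on were available for 7 of the 10 genes, in which 6 motifs were searched on both strands. Egr1, Egr3 and Fosl1 had no window. Bases further upstream were not searched, so a gene without a match may hold one there. Egr2, with 5 starts, had 5 windows searched. TGACG occurred in windows of 5 of the 7 genes (Fos, Fosb, Junb, Atf3 and Egr2), against 23.05% of 27025 genes with a window. TGACNTCA occurred in 1 of 7 (Jun), against 10.02% of genes, and the CArG box in 1 of 7 (Egr2), against 1.81%. The EGR motif GCGNGGGCG occurred in 2 of 7 (Fosb and Fosl2), against 6.27%. The AP-1 motif TGANTCA (8.97% of genes) and the STAT-type motif TTCNNNNGAA (8.01%) occurred in none of the 7. TGACG is part of the full site with G in the middle, so the first and second motif can overlap. Genes that rose and genes that fell both held TGACG, and these matches are letters in a window and no measure of binding.

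Libraries held 28526782 to 28674604 expected counts in the control group and 28914003 to 29057787 in the IL-4 group. Depth therefore differed little, and the biological coefficient of variation was 0.0939. Counts of IL-4 replicates 4 and 5 differed by 2.69 chi-square units per gene, where 1 would be counting noise alone. IL-4 replicate 6 stood apart from them, with 55.3 against replicate 4 and 44.2 against replicate 5, and controls differed from each other by 4.24 to 20.0. Counts and calls that changed without replicate 6 are given beside the results. The AP label was checked against markers. Of 12 AP markers all were detected, and their summed FPKM (fragments scaled by transcript length and library size, a level per length) was 4552 to 4883 in controls and 5040 to 5368 with IL-4. The 17 macrophage markers reached a summed FPKM of 4777 to 6259 in controls and 1866 to 2571 with IL-4, although CD45-positive cells had been removed. Single genes weigh heavily in these sums. In mean normalized counts of controls, Col1a1 led the AP list with 528700, against 224 for Cd34 and 46.5 for Pi16. Lyz2 led the macrophage list with 73410. The sums are therefore no measure of the share of either cell type. Of the 17 macrophage markers, 16 were lower with IL-4 and 0 higher at an adjusted p under 0.05 in edgeR (1 higher at an unadjusted p under 0.05, and 1 in DESeq2). Among all genes tested, 18.4% were lower and 19.0% higher. Macrophage transcripts were thus abundant in cultures labelled as APs, and their part in the changes given here was not tested. Lymphocyte markers summed to at most 1.25 FPKM, with Cd3d and Cd3e not listed in any library, and endothelial markers to 14.3 to 17.3 FPKM. In such bulk cultures, fewer cells of a type and less RNA per cell cannot be told apart.

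IL-4 was accompanied by changes of opposite direction within the set. Jun, Atf3, Egr2 and Fosl1 were upregulated and Egr1, Egr3, Fosb and Fosl2 were downregulated, while Fos and Junb did not pass the test. Thus 4 of the 10 genes were higher, against 19.0% of all genes tested, and 4 were lower, against 18.4% (quasi-likelihood test in edgeR, adjusted p under 0.05 by Benjamini-Hochberg across the 14009 genes). Beyond 2-fold, 2 were higher (Jun and Atf3), against 5.77% of all genes, and 1 was lower (Egr3), against 5.26%. In normalized counts the control and IL-4 libraries did not overlap for 9 of the 10 genes, Junb being the exception, against 50.4% of all genes. This depended on the scaling. In FPKM the groups also overlapped for Fos (4.43 to 4.91 in controls, 4.40 to 4.66 with IL-4). The same held for Fosl1 (3.38 to 4.27 in controls, 3.95 to 5.43 with IL-4). Ranked by the size of their change among the 14009 genes, Egr3 was 432nd, Atf3 462nd and Jun 532nd, whereas Fos was 9836th and Junb 13081st. Without IL-4 replicate 6, 3 genes were higher and 4 lower, since Fosl1 no longer passed.

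**Figure D1:**
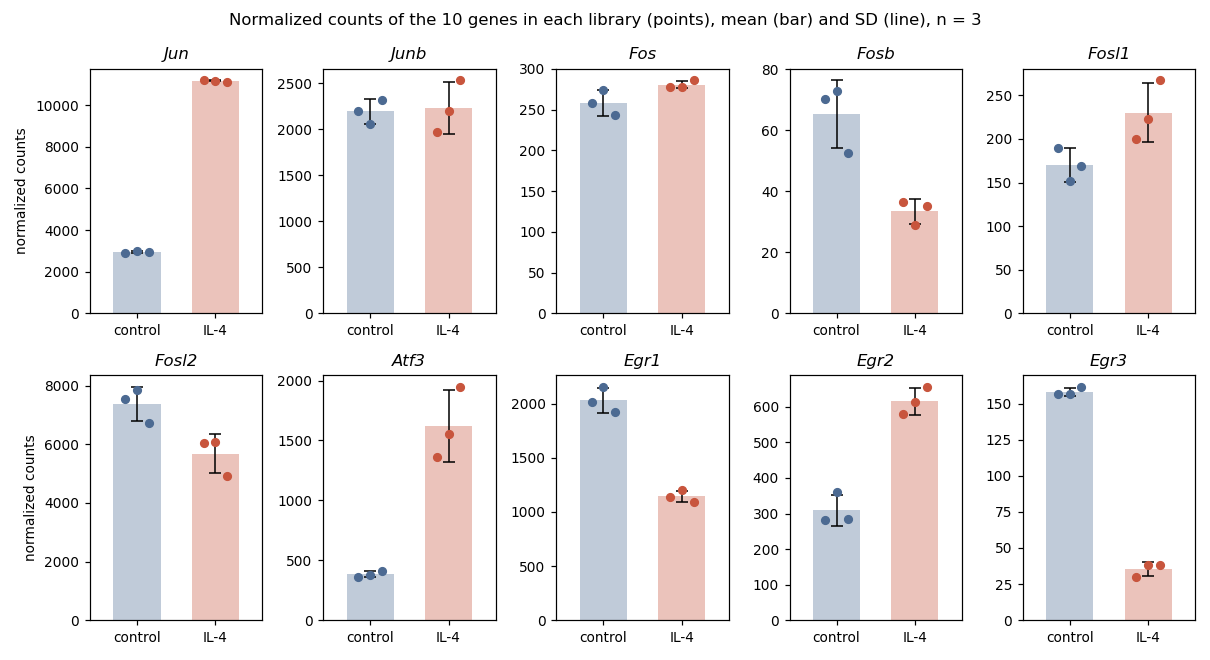
Normalized counts of the 10 genes (y axis, a separate linear scale from 0 for each gene) in control libraries 1 to 3 and IL-4 libraries 4 to 6 (x axis); points are libraries, bars are means and lines are SDs (n = 3). Points of the groups are apart in every panel except Junb, and Jun has the largest counts with IL-4.

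Jun encodes c-JUN, the strongest transcriptional activator among the JUN proteins. Jun (Entrez ID 16476, mm10 chromosome 4, bases 95049036 to 95052222) had 2882, 2987 and 2937 normalized counts in controls 1 to 3 and 11200, 11180 and 11140 in IL-4 replicates 4 to 6. Every IL-4 library was above every control, and replicate 6 lay with the other IL-4 libraries. Its log2 change was 1.93 ± 0.05 (SE, adjusted p = 1.84e-07, edgeR), which is 3.81-fold with a 95% interval of 3.50 to 4.14. Leaving out each library in turn gave 1.91 to 1.94.

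Junb encodes JUNB, which pairs like c-JUN but activates many AP-1 sites more weakly. Junb (Entrez ID 16477, mm10 chromosome 8, bases 84976909 to 84978748) had 2198, 2057 and 2321 normalized counts in controls and 1966, 2193 and 2531 with IL-4. The groups overlapped, and the IL-4 group held both the lowest and the highest value. The log2 fold change was 0.02 (95% interval -0.20 to 0.25, adjusted p = 0.866), so a change of more than 1.19-fold upward lay outside the interval under this scaling. Its sign turned under other scalings, with -0.15 for library totals.

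Jund, the third JUN gene and not one of the 10, is usually expressed without a stimulus. It had 3629 ± 141 normalized counts in controls (SD, n = 3) and 4505 ± 395 (SD, n = 3) with IL-4, a log2 fold change of 0.31 (adjusted p = 0.0122). On the FPKM scale, Jun made up 27.2% ± 1.15 of the sum of Jun, Junb and Jund in controls and 55.7% ± 2.54 with IL-4 (SD, n = 3). Junb made up 35.7% ± 1.05 and 19.5% ± 1.64, and Jund 37.1% ± 0.20 and 24.7% ± 1.11. The summed FPKM of the 3 genes was 127.5 ± 5.43 in controls and 210.0 ± 12.8 with IL-4. In controls Jun was thus the least abundant of the 3 JUN mRNAs, and with IL-4 it exceeded the other two together.

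Fos, the founding gene of the FOS proteins, encodes an activator whose mRNA is very short-lived. Fos (Entrez ID 14281, mm10 chromosome 12, bases 85473890 to 85477274) had 258, 274 and 243 normalized counts in controls and 278, 278 and 286 with IL-4. The lowest IL-4 library was just above the highest control. The log2 fold change of 0.12 (95% interval -0.08 to 0.32, adjusted p = 0.317) did not pass the test, and it was -0.05 with library totals.

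Fosb encodes FOSB and its truncated form, ΔFOSB, which the gene-level counts do not separate. Fosb (Entrez ID 14282, mm10 chromosome 7, bases 19302696 to 19310118) had 70.3, 72.9 and 52.5 normalized counts in controls and 36.4, 28.8 and 35.1 with IL-4, from 27 to 76 reads per library. All IL-4 libraries were below all controls. Its log2 change was -0.96 ± 0.20 (SE, adjusted p = 0.0057), 1.95-fold lower, close to the 2-fold line. It lay beyond that line without control replicate 3 (-1.10) or without IL-4 replicate 4 (-1.02).

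Fosl1 and Fosl2 encode FRA-1 and FRA-2, FOS proteins without the strong activation domain of c-FOS. Fosl2 (Entrez ID 14284, mm10 chromosome 5, bases 32136472 to 32157840) had 7558, 7842 and 6734 normalized counts in controls and 6046, 6095 and 4922 with IL-4. The groups did not overlap, and control replicate 3 and IL-4 replicate 6 were each the lowest of their group. The log2 change was -0.38 ± 0.10 (SE, adjusted p = 0.0186), and the call was lost without control replicate 1 (adjusted p = 0.0712) or control replicate 2 (0.0737), both by edgeR's quasi-likelihood test. Without IL-4 replicate 6 the change was -0.28 (adjusted p = 0.00741, edgeR).

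Fosl1 (Entrez ID 14283, mm10 chromosome 19, bases 5447698 to 5455938) had 190, 152 and 169 normalized counts in controls and 200, 223 and 267 with IL-4. Here replicate 6 was the highest library. The log2 change was 0.44 ± 0.14 (SE, adjusted p = 0.0398). Without replicate 6 it was 0.32 (adjusted p = 0.0642, edgeR), and the call was also lost without control replicate 2 (adjusted p = 0.134) or 3 (0.0970), without IL-4 replicate 5 (0.0791) and under other scalings. Fosl1 overlaps the gene Ccdc85b in the annotation and had fractional counts in 5 of 6 libraries, so some of its reads were shared with another gene and its value is uncertain.

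Together the 4 FOS mRNAs summed to 55.8 ± 3.49 FPKM in controls and 41.2 ± 2.35 with IL-4 (SD, n = 3), and the groups did not overlap. Fosl2 made up 83.6% of that sum in controls and 77.1% with IL-4. Fos made up 8.37% and 10.9%, Fosl1 6.89% and 11.2%, and Fosb 1.16% and 0.715%. FRA-2 was therefore the prevailing FOS mRNA in both groups. FPKM does not carry the scaling used for the normalized counts. On log2(FPKM + 0.1) the median log2 fold change of all genes was -0.17, against 0.0026 in the main fit. Sums in FPKM therefore read somewhat lower with IL-4 than those counts would.

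**Figure D2:**
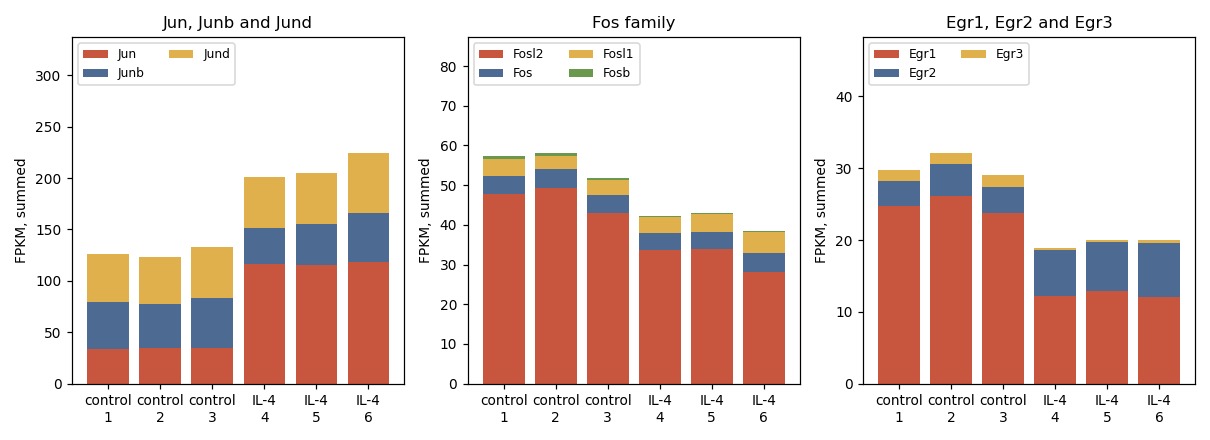
Stacked FPKM of the JUN, FOS and EGR genes (y axis, FPKM summed within a library, without the scaling used for normalized counts) in each library (x axis). The JUN sum is 122.7 to 133.4 in controls and 200.9 to 224.7 with IL-4, mostly through Jun; the FOS and EGR sums are lower with IL-4, and Egr2 takes a larger part of the EGR sum there.

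Atf3 encodes a bZIP protein that pairs with JUN proteins, represses or activates depending on its partner, and rises in stressed cells. Atf3 (Entrez ID 11910, mm10 chromosome 1, bases 191170296 to 191183333) had 359, 381 and 412 normalized counts in controls and 1358, 1552 and 1945 with IL-4. The groups were far apart, but the IL-4 libraries differed more among themselves than those of Jun, with replicate 6 the highest. The log2 change was 2.08 ± 0.14 (SE, adjusted p = 1.26e-05, edgeR), 4.21-fold with a 95% interval of 3.39 to 5.24, and it was 1.93 without replicate 6.

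Genes of the integrated stress response, the pathway in which ATF4 induces Atf3, were higher with IL-4 in 12 of 13 cases (7 with library totals) and lower in 0 (also 0 at an unadjusted p under 0.05 and in DESeq2), against 19.0% and 18.4% of all genes. Their median log2 fold change was 0.47, against 0.0026 for all genes tested. Chac1, which degrades glutathione, rose from 346 ± 28.1 to 1047 ± 128 normalized counts (SD, n = 3; log2 fold change 1.597, adjusted p = 1.47e-05). Nupr1, a stress-induced nuclear protein, had a log2 fold change of 0.98 (adjusted p = 0.00627), and Atf5 of 0.70 (adjusted p = 0.000489). Atf4 itself was 0.41 higher on the log2 scale (adjusted p = 0.00836), and Ddit3, encoding CHOP, 0.47 (adjusted p = 0.0160); these genes, which the rule for named genes did not pick, were chosen after their values were seen. Cebpb, the 1 gene of the list that did not pass, had 0.30 (adjusted p = 0.0767). None of these rises except that of Chac1 reached 2-fold, whereas Atf3 exceeded it.

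Egr1 encodes the EGR factor induced most widely by growth factors. Egr1 (Entrez ID 13653, mm10 chromosome 18, bases 34861207 to 34864956) had 2016, 2152 and 1924 normalized counts in controls and 1135, 1200 and 1095 with IL-4. The groups were apart, with the lowest control well above the highest IL-4 library. Its log2 change was -0.83 ± 0.07 (SE, adjusted p = 4.36e-05), 1.78-fold lower with IL-4.

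Egr2 encodes KROX20, known from myelinating Schwann cells, from macrophages and from the early hours of fat cell differentiation. Egr2 (Entrez ID 13654, mm10 chromosome 10, bases 67534469 to 67542188) had 281, 360 and 285 normalized counts in controls and 580, 614 and 656 with IL-4. All IL-4 libraries were above all controls. The change was 0.998 ± 0.11 on the log2 scale (SE, adjusted p = 0.000242), 2.00-fold with a 95% interval of 1.67 to 2.39, which just missed the threshold of 2-fold. It lay beyond that line without control replicate 2 (1.12), IL-4 replicate 4 (1.05) or IL-4 replicate 5 (1.01). A noncoding gene, Gm32255, overlaps Egr2 in the annotation and is not listed in the files, and no strand marking is described for the library protocol, so reads of both genes may not have been separated.

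Egr3 encodes a relative known from muscle spindles and T cells. Egr3 (Entrez ID 13655, mm10 chromosome 14, bases 70077317 to 70082613) had 157, 156 and 161 normalized counts in controls and 30.0, 38.4 and 38.2 with IL-4, from 163 to 172 and 28 to 37 reads per library. Controls were nearly equal, and all lay well above the IL-4 libraries. The log2 change was -2.15 ± 0.14 (SE, adjusted p = 1.08e-05), 4.44-fold lower with IL-4. In size this was close to the change of Atf3, which was the larger of the pair without IL-4 replicate 4 (2.20, against -2.03 for Egr3). Egr4 had at most 1 read in any library and was not tested.

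In FPKM, which lacks the scaling of the normalized counts, the EGR sum was 30.3 ± 1.65 in controls and 19.7 ± 0.64 with IL-4 (SD, n = 3). Egr1 made up 82.1% ± 0.82 of it in controls and 63.2% ± 2.16 with IL-4. Egr2 made up 12.9% ± 1.07 and 35.3% ± 2.03, and Egr3 5.08% ± 0.36 and 1.56% ± 0.20. Nab1 and Nab2, which encode corepressors that bind EGR1, EGR2 and EGR3, were both lower with IL-4. Nab2 had 2610 ± 56.5 normalized counts in controls and 2058 ± 67.1 with IL-4 (SD, n = 3). Its log2 fold change was -0.34 (adjusted p = 0.00179, edgeR), and that of Nab1 was -0.22 (adjusted p = 0.0186, edgeR). Only 1 of these 2 genes was called lower when control replicate 1, control replicate 2 or IL-4 replicate 4 was left out.

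**Figure D3:**
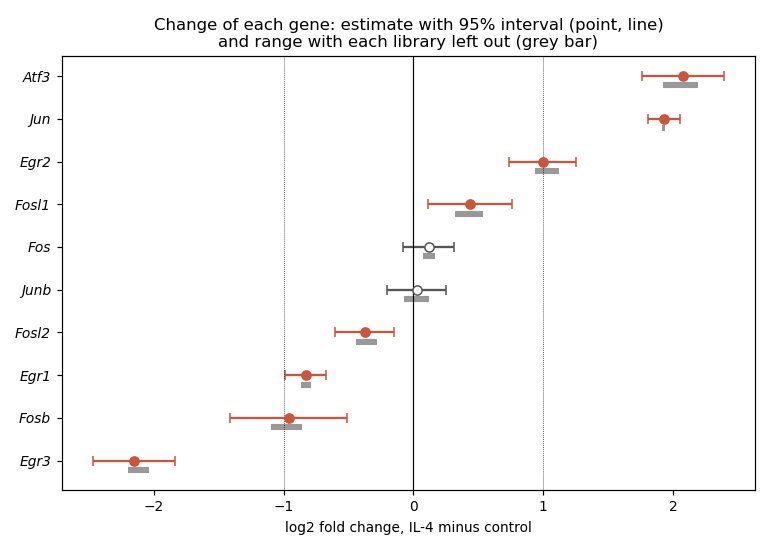
Log2 fold change (x axis, IL-4 minus control) of each gene (y axis) with its 95% interval from edgeR; filled points passed the test, open points did not, grey bars span the estimates with each library left out, and dotted lines mark 2-fold. Atf3 and Jun lie beyond 2-fold on the right, Egr3 on the left, and Egr2 and Fosb lie next to the lines.

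Ranked by level per length, the mean FPKM in controls was 46.6 for Fosl2, 45.6 for Junb, 34.6 for Jun, 24.9 for Egr1 and 7.39 for Atf3. Then followed Fos at 4.66, Egr2 at 3.91, Fosl1 at 3.83, Egr3 at 1.54 and Fosb at 0.65. The libraries of neighbours overlapped for Fosl2 and Junb, for Fos and Egr2 and for Egr2 and Fosl1, and all other neighbours were apart. With IL-4 the order was led by Jun at 116.9, followed by Junb at 41.1, Fosl2 at 31.8 and Atf3 at 27.7, the last pair overlapping. Egr1 followed at 12.4, Egr2 at 6.93, Fosl1 at 4.60 and Fos at 4.49 (overlapping), and Egr3 at 0.31 and Fosb at 0.29 (overlapping). Jun alone made up 19.9% of the summed FPKM of the 10 genes in controls and 47.5% with IL-4, and Atf3 4.26% and 11.2%.

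The ratio of paralogs within a library does not depend on how libraries are scaled against each other. Jun over Junb was 1.266 to 1.452 in normalized counts in controls (mean 1.34 ± 0.097, SD) and 4.403 to 5.695 with IL-4 (mean 5.07 ± 0.65, SD). Ratios of normalized counts are not corrected for transcript length, so they do not rank the mRNAs of a pair. Per length, Jun was below Junb in controls, with a mean FPKM of 34.6 against 45.6. Egr1 over Egr2 was 5.98 to 7.17 in controls and 1.67 to 1.96 with IL-4. Egr2 over Egr3 was 1.77 to 2.30 in controls and 16.0 to 19.4 with IL-4. Egr2 was thus nearer to Egr1, and further from Egr3, in every IL-4 library. The mean of Egr1 over Egr3 was 12.9 in controls and 32.6 with IL-4, that of Fos over Fosb 4.02 and 8.48, and that of Fosl1 over Fosl2 0.0232 and 0.0413. The summed FPKM of the FOS genes over that of Jun and Junb was 0.619 to 0.752 in controls and 0.232 to 0.278 with IL-4. For these 7 ratios the groups did not overlap, with p = 0.1 in two-sided exact permutation tests (0.114 adjusted over 8 ratios), the smallest p that 3 against 3 libraries allow, so this test could not reach 0.05. Atf3 over Jun was 0.131 ± 0.008 in controls and 0.145 ± 0.027 with IL-4 (SD, n = 3) and overlapped (exact permutation p = 0.7).

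Other bZIP factors that join or compete with AP-1 were mostly not called. Of 10 tested, 2 were higher (Jund and Batf3) and 1 was lower (Maff), near or under the 19.0% and 18.4% of all genes, with a median log2 fold change of -0.04. Without control replicate 1 or 2, 1 was higher, and without IL-4 replicate 6, 2 were lower. Maff, a small MAF protein, had a log2 fold change of -0.37 (adjusted p = 0.0111). Batf3, which pairs with JUN proteins in immune cells, rose from 5.05 ± 2.13 to 33.4 ± 4.91 normalized counts (SD, n = 3). Its log2 fold change was 2.69 (adjusted p = 0.000312, edgeR), and it was chosen after its values were seen since its count is low. Batf3 passed the filter on low counts only through the IL-4 group, so it could be counted only as higher. With library totals in place of TMM scaling, 1 was higher and 4 were lower.

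Other immediate early genes also changed in both directions. Of 35 tested, 9 were higher and 14 lower, 4 and 7 of them beyond 2-fold, and the median log2 fold change was -0.17. Of all genes, 19.0% were higher and 18.4% lower, 5.77% and 5.26% beyond 2-fold. Without IL-4 replicate 6, 9 were higher and 15 lower. With library totals, 7 were higher and 17 lower. When a control replicate or IL-4 replicate 4 or 5 was left out, 8 to 9 were higher and 11 to 12 lower. Klf4, a zinc finger factor, rose from 1317 ± 37.6 to 6764 ± 354 normalized counts (SD, n = 3; log2 fold change 2.36, adjusted p = 1.64e-07). Pim1, a serine/threonine kinase gene known as a STAT target, rose by 1.81 on the log2 scale (adjusted p = 2.63e-07). Nr4a1, an orphan nuclear receptor induced together with Egr1 in many cells, fell from 322 ± 18.3 to 86.2 ± 13.8 (log2 fold change -1.90, adjusted p = 1.53e-05).

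Genes that carry the signal to the immediate early promoters were mostly not called. Of 29 tested SRF, ternary complex factor, CREB and MAP kinase genes, 1 was higher and 5 were lower, the latter near the 18.4% of all genes. The number lower was 13 with library totals, and 1 to 3 when a control replicate or IL-4 replicate 4 or 5 was left out. Without IL-4 replicate 6, 4 were higher. Rps6ka1 and Rps6ka3, which encode the ERK-activated kinases RSK1 and RSK2, moved against each other, with log2 fold changes of -1.31 (adjusted p = 1.10e-05) and 0.74 (adjusted p = 0.00264). Rps6ka5, encoding MSK1, had -0.43 (adjusted p = 0.0310). The remaining 3 lower genes were Srf at -0.25 (adjusted p = 0.0154), Elk3 at -0.19 (adjusted p = 0.0281) and Map2k1 at -0.17 (adjusted p = 0.0403), chosen after their values were seen.

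Genes that ERK signalling induces, among them genes that dampen it again, were also divided. Of 13 tested, 3 were higher (Dusp4, Phlda1 and Etv1) and 5 were lower (Dusp5, Dusp6, Spry1, Etv4 and Spry2), all except Spry2 beyond 2-fold, against 19.0% and 18.4% of all genes. The number lower was 6 with library totals, upper-quartile scaling or limma. It was 4 without control replicate 1 or 2 or IL-4 replicate 4 or 5. Dusp6, the cytoplasmic ERK phosphatase, fell from 1392 ± 153 to 390 ± 28.5 normalized counts (SD, n = 3; log2 fold change -1.83, adjusted p = 4.76e-06). Dusp4, a nuclear MAP kinase phosphatase, rose from 423 ± 61.5 to 1269 ± 186 (log2 fold change 1.58, adjusted p = 6.79e-05). Spry1, a receptor tyrosine kinase antagonist, had a log2 fold change of -1.37 (adjusted p = 2.16e-06).

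Of 18 genes described as AP-1 targets, 8 were higher and 6 lower, against 19.0% and 18.4% of all genes, with a median log2 fold change of 0.01. Which direction led was not stable, with 7 higher and 7 lower without IL-4 replicate 6, and 6 higher and 9 lower with library totals. Mmp12, the macrophage elastase, rose from 3647 ± 214 to 27160 ± 2693 normalized counts (SD, n = 3; log2 fold change 2.90, adjusted p = 3.01e-07). Ccnd1, encoding cyclin D1, had a log2 fold change of -1.23 (adjusted p = 5.31e-06). Of 10 genes described as EGR targets, 0 were higher (also 0 at an unadjusted p under 0.05 and in DESeq2) and 4 were lower, with a median of -0.12. The number lower was 6 with library totals and 5 without IL-4 replicate 6. It was 3 without control replicate 1 or 3 or IL-4 replicate 4 or 5. Among all genes tested, 19.0% were higher and 18.4% lower. Pdgfb, the B chain of PDGF, fell from 462 ± 69.2 to 130 ± 21.6 (log2 fold change -1.83, adjusted p = 5.37e-05). Bdnf had -0.60 (adjusted p = 0.00158), Trp53 -0.28 (adjusted p = 0.0166) and Cdk5r1, added after its values were seen, -1.004 (adjusted p = 0.00354).

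**Figure D4:**
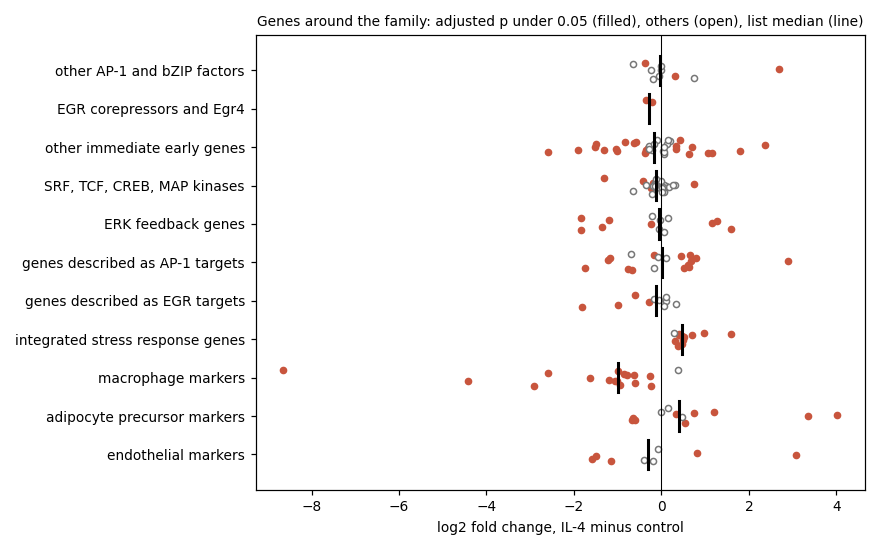
Log2 fold change (x axis, IL-4 minus control) of every tested gene in the lists around the AP-1 and EGR factors and in 3 lists of cell type markers (y axis); filled points passed the test, open points did not, and black lines are list medians. The integrated stress response genes lie right of 0 (median 0.47) and the macrophage markers mostly left of it (median -0.99), both EGR corepressors lie left of it, and the other lists straddle 0.

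Macrophage genes moved with the same comparison and are given for that reason. Among the markers, Cx3cr1 fell from 1601 ± 170 to 3.86 ± 1.13 normalized counts (SD, n = 3), Aif1 from 199 ± 68.2 to 9.11 ± 3.78, Fcgr1 from 822 ± 104 to 109 ± 14.2 and Cd14 from 2337 ± 286 to 388 ± 58.6, all with adjusted p of 4.65e-05 or lower. Adgre1, the gene of the F4/80 antigen, changed by -0.24 on the log2 scale (adjusted p = 0.0276), and Cd68 by 0.38 (adjusted p = 0.0572). Of 12 listed macrophage genes known to respond to IL-4, 8 had enough counts for the test and all 8 were higher (against 19.0% of all genes tested), several of them passing the filter only through the IL-4 group. The 4 not tested, Cd209a, Ccl17, Ccl22 and Alox15, had at most 17 reads in any library. The summed FPKM of the 12 genes was 84.3 to 109.2 in controls and 3654 to 4889 with IL-4. AP markers changed too, 6 of 12 being higher and 3 lower, against 19.0% and 18.4% of all genes. The higher ones included Cd34 at 3.35, Pi16 at 4.02, Ly6a (which encodes SCA-1) at 1.20 and Dcn at 0.73 on the log2 scale (adjusted p = 0.000104 or lower). The lower ones were Pdgfrb at -0.66, Lum at -0.61 and Dlk1 at -0.67 (adjusted p = 0.0492 or lower), added after their values were seen. With upper-quartile scaling 2 AP markers were lower, and with library totals 4. It was also 2 when any control replicate or IL-4 replicate 4 or 5 was left out. Of 8 endothelial markers 2 were higher, Vwf (3.08) and Tek (0.81), and 3 lower, Cdh5 (-1.60) and, added after their values were seen, Emcn (-1.49) and Tie1 (-1.16), against 19.0% and 18.4% of all genes. Of the endothelial markers, 2 were lower when any control replicate or IL-4 replicate 4 was left out, and 5 with library totals. Of the mature adipocyte genes 2 of 8 had enough counts for the test. Fabp4 was higher (1.10), and Lipe had -0.32 (adjusted p = 0.0432), a call lost in DESeq2 and when control replicate 1 or 3 or any IL-4 replicate was left out. Macrophages and fibroblasts both express AP-1 and EGR genes, and the cell type behind each of the 10 changes was not tested.

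The genes whose pattern over the 6 libraries lay nearest to that of each factor beyond 2-fold were found among 11419 genes, by the distance between log2 normalized counts centred on each gene's mean. For Jun they were Gja1, the gap junction gene of connexin 43 (distance 0.0677), Abcd2 (0.0722) and Loxl3 (0.0767), with log2 fold changes of 1.94, 1.96 and 1.90. For Atf3 they were P2rx3 (0.288), Selenbp1 (0.294) and G0s2 (0.301), with log2 fold changes of 2.15, 1.98 and 2.02. For Egr3 they were Cxcl16 (0.233), Nxpe5 (0.261) and Plscr2 (0.273), with log2 fold changes of -2.24, -2.11 and -1.94. By this distance only genes with a similar change can lie near, so the matching fold changes are no separate result. Shared regulation was not tested.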

How the data were processed

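For mRNA-seq, poly(A) RNA was sequenced in 3 control and 3 IL-4 libraries. Reads were filtered (SOAPnuke) and genes quantified by the authors using Bowtie2 with RSEM (HISAT, StringTie and mm10 are also named in the submitters' processing notes; versions are not given in the sources used here). The files deposited by the authors hold expected counts, estimated per gene and not normalized (87.0% of those above 0 were whole), and FPKM, which the authors scaled by length and library size. A gene not listed in a library was taken as 0. One row that names no gene (0.00016% of counts) was left out.

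After rounding, low genes were removed by filterByExpr (minimum count 10, total 15), and the counts were TMM-scaled and tested with edgeR 4.0.16 under R 4.3.3 on all 14009 genes. A normalized count is the count over its TMM-scaled library size, times the mean of these sizes. Named genes are all 10 members, up to 3 genes of each list (4 of cell type lists) with the largest change among those called (adjusted p under 0.05), averaging 100 or more normalized counts and without overlap, and the 3 nearest genes. Members and lists were chosen with earlier results of these data known. Alternatives were DESeq2 1.42.0, other scalings, limma 3.58.1 on log2 FPKM with a pseudocount of 1 or 0.1, no filter, glmTreat at 1.5-fold and leaving out each library. The fits were tested on simulated data. Small RNA libraries were not used here. Some genes that the rule names are not reported here.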

Additional observations from a re-analysis of the deposited data

How the results depend on the processing

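Relative to TMM, library totals lowered the median log2 fold change of all genes to -0.17, and limma on log2(FPKM + 1) and log2(FPKM + 0.1) to -0.13 and -0.17. Directions of Jun, Atf3, Egr1, Egr2, Egr3, Fosb, Fosl1 and Fosl2 were the same under every alternative run. The number of members called lower beyond 2-fold, 1 in the report, was 3 with library totals (Egr1 at -1.001 and Fosb at -1.13 joined Egr3), 0 with limma on log2(FPKM + 1), where the pseudocount held Egr3 at -0.96, and 1 to 2 with each library left out. The glmTreat test, which asks for a change beyond 1.5-fold and had no 2-fold cut, called 2 members lower. Fos turned to -0.053 with library totals, -0.044 with limma on log2(FPKM + 1) and -0.053 on log2(FPKM + 0.1), none passing. Junb turned to -0.15, -0.15 and -0.16 under the same settings, none passing, and ranged from -0.071 to 0.117 with each library left out, below 0 without control replicate 2 or IL-4 replicate 6. The log2 ratio of Atf3 to Jun changed by 0.13, and by -0.01 to 0.25 with each library left out, the lowest without IL-4 replicate 6. Fosl1 lost its call with upper-quartile scaling (0.42), library totals (0.27) and limma (0.21 and 0.25). Members called higher beyond 2-fold numbered 2 to 3 over the alternatives other than glmTreat, which called 3 higher at 1.5-fold. Members higher numbered 3 to 4 and members lower 3 to 4 over all alternatives except glmTreat. The cause was not tested. Depth limits Fosb and Egr3 most, at 27 to 172 reads per library. No paired analysis was possible because the mRNA-seq groups share no replicate number.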
